A study of Mus musculus with 12 samples.

Results

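Proteasome genes were followed in whole-kidney RNA-Seq from male C57BL6 mice aged 8 weeks, with 1 library per mouse. Groups of 6 mice received a single intraperitoneal injection of either vehicle or SK-124 at 40 mg/kg, with 2-hydroxypropyl-beta-cyclodextrin at 15% as the vehicle. SK-124 is a small molecule that selectively inhibits the salt-inducible kinases SIK2 and SIK3. Both groups were otherwise the same strain, sex and age, and the time from injection to RNA-Seq tissue collection was not given in the sources used here. Genes were taken by name: every protein-coding gene whose symbol begins with *Psm*, a letter from a to g and a number, which gave 50 of 55401 genes in the deposited tables. A further 4 genes with such names were pseudogenes, of which *Psmb5-ps*, *Psmb6-ps* and *Psmb6-ps2* held no count in any mouse and *Psmb7-ps2* held at most 1. The naming pattern also takes in *Psmc3ip*, which encodes a meiotic recombination protein rather than a proteasome subunit, and it leaves out the subunit genes *Sem1* and *Adrm1*, which are described with the partners of the proteasome.

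The proteasome is the main protease of the cytosol and nucleus and destroys proteins that carry chains of ubiquitin. Its core particle is a barrel with alpha rings (*Psma* genes) at its ends and beta rings (*Psmb* genes) between them, and the beta rings hold the cutting sites. The regulatory particle caps the barrel with a ring of ATPases (*Psmc*) that unfold the substrate and with non-ATPase subunits (*Psmd*) that bind and remove ubiquitin. Interferon exchanges the cutting subunits for inducible ones, which makes the immunoproteasome. Alternative caps (*Psme*), an inhibitor (*Psmf1*) and assembly chaperones (*Psmg*, *Psmd5*, *Psmd9*, *Psmd10*) complete the family. In kidney, every cell type depends on the proteasome, and subunit genes are known to be raised together by the transcription factor NRF1 (*Nfe2l1*) and in some settings by NRF2 (*Nfe2l2*).

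Of the 50 genes, 47 passed the expression filter. The 3 that did not were *Psma8*, the testis form of an alpha subunit, *Psmb11*, the thymus cutting subunit, and *Psme2b*, a near copy of *Psme2*. *Psma8* had 1 to 6 expected counts per mouse, *Psmb11* was at 0 in every mouse, and *Psme2b* had 1.97 to 9.

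Transcripts of the proteasome body stood close to the vehicle level in SK-124-treated mice. Of the 47 tested genes, 1 was higher with SK-124 at a false discovery rate (FDR, the Benjamini-Hochberg adjusted p of edgeR's quasi-likelihood test) under 0.05 and 1 was lower, against 10.8% of the 14159 tested genes that were higher and 13.5% that were lower (24.4% in either direction). The gene that rose was *Psmd9*, an assembly chaperone of the ATPase ring, and the gene that fell was *Psmb10*, an inducible cutting subunit. None of the 31 structural subunits of the constitutive particle (7 alpha, 7 beta, 6 ATPase and 11 non-ATPase genes) passed the test, and for all 31 the 95% interval of the fold change lay within 1.25-fold of no change in either direction. Of all tested genes, 44.9% had intervals that narrow and central. The 47 genes were more abundant, though, with a median vehicle mean of 24.0 TPM (a measure described below) against 5.11 over all tested genes. Genes of like level were not compared. With library totals in place of TMM scaling, 29 of the 31 subunits had such intervals, without *Psma5* and *Psmd3*. With SK-124-treated mice 1 to 3 only or 4 to 6 only, 27 and 23 of the 31 did. An unadjusted p under 0.05 was found for 6 of those 31 subunits, namely *Psma6*, *Psmc6*, *Psmd3*, *Psmd11*, *Psmd12* and *Psmd14* (19.4%, against 35.2% of all tested genes). Across the 47 genes the median log2 fold change was 0.07, beside -0.01 for all tested genes.

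Several libraries stood apart and bear on these counts. Expected counts summed to 19244227 to 19771802 per mouse, so depth was nearly even. In SK-124-treated mice 1 to 3, the 10 most abundant genes took 44.4% to 46.8% of counts, against 38.6% to 43.2% in the other 9 mice. In vehicle mouse 3, the core subunits of the *Psma* and constitutive *Psmb* genes summed to 689 CPM (counts scaled to library size by edgeR's TMM factors), against 547 to 598 in the other vehicle mice and 573 to 662 in SK-124-treated mice. Without vehicle mouse 3, 9 of the 47 genes were higher at FDR under 0.05 (19.1%, against 13.1% of all genes in that fit), and 2 were lower (*Psmb10* and *Psmd3*, against 14.6% of all genes). The 9 were *Psmb3*, *Psmb4*, *Psmb5*, *Psmb6*, *Psmd4*, *Psmd8*, *Psmd9*, *Psmd11* and *Psmd12*, and 30 of the 31 structural subunits still had intervals within 1.25-fold (the exception was *Psmd11*).

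**Figure D1:**
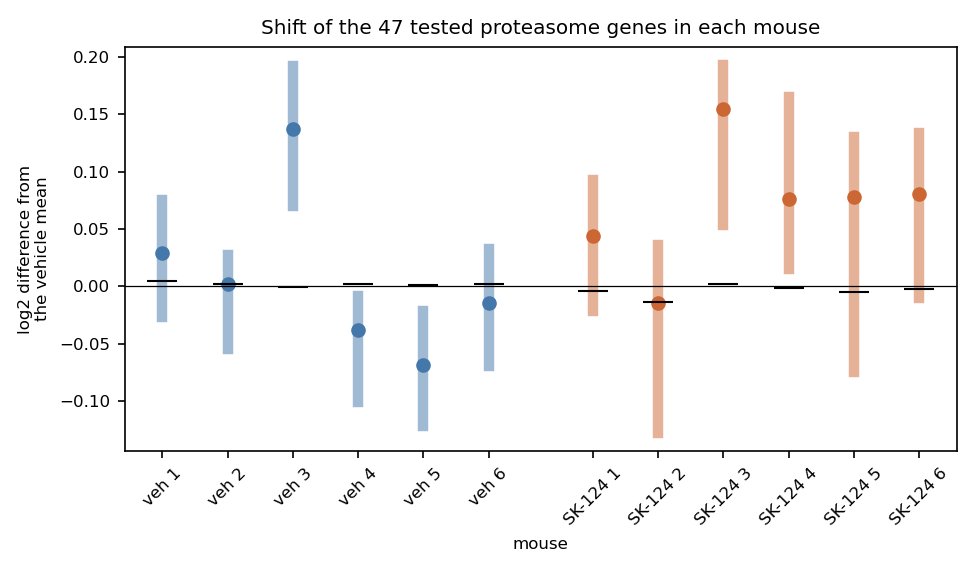
Each point is the median over the 47 tested proteasome genes of the log2 difference between that mouse and the vehicle mean (TMM-normalized CPM with 0.5 added), thick bars run from the lower to the upper quartile of the genes, and short black lines mark the median over all 14159 tested genes. Vehicle mouse 3 (0.14) lies above the other vehicle mice (-0.07 to 0.03), and SK-124-treated mice range from -0.01 to 0.15.

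The direction of so small a shift depended on how libraries were scaled. With TMM scaling, 34 of the 47 genes had a log2 fold change above 0, whereas with library totals alone 11 did, and the median of the 47 genes turned to -0.04. The median of all tested genes moved with it, from -0.01 to -0.12, and the proteasome genes were 0.08 above the median gene in both fits. Changing the scaling moves all genes by nearly the same amount, so this offset could hardly change and is no check of the shift. Relative to the median gene their median was above 0 in every fit made, by 0.04 to 0.12 on the log2 scale. These fits share most or all of their mice and are not independent of each other.

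Subunits that assemble in equal number differed widely in transcript level. In TPM, a relative abundance corrected for transcript length that allows comparison between genes, the vehicle means of the alpha ring genes ran from 13.9 ± 1.13 for *Psma2* and 16.6 ± 1.07 for *Psma5* to 85.8 ± 7.16 for *Psma4* (SD, n = 6). The constitutive beta genes ran from 30.0 ± 1.89 TPM for *Psmb1* to 83.0 ± 8.60 for *Psmb6*. The ATPase genes ran from 23.8 ± 1.48 TPM for *Psmc2* to 87.8 ± 8.98 for *Psmc3*, and the non-ATPase genes from 15.1 ± 1.55 for *Psmd14*, the deubiquitinase of the cap, to 77.2 ± 5.39 for *Psmd8*. Neighbours at the top of the order (*Psmc3*, *Psma4*, *Psmb6*, *Psme1* and *Psmd8*) differed by less than the spread between mice. The inducible beta genes had 1.67 to 8.25 TPM and the assembly chaperones 4.29 to 15.3 TPM in the vehicle mean. Between vehicle mice, the median coefficient of variation of CPM was 7.85% for the 47 genes and 11.0% for all tested genes. The 47 genes were also more abundant, with a median vehicle mean of 24.0 TPM against 5.11.

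**Figure D2:**
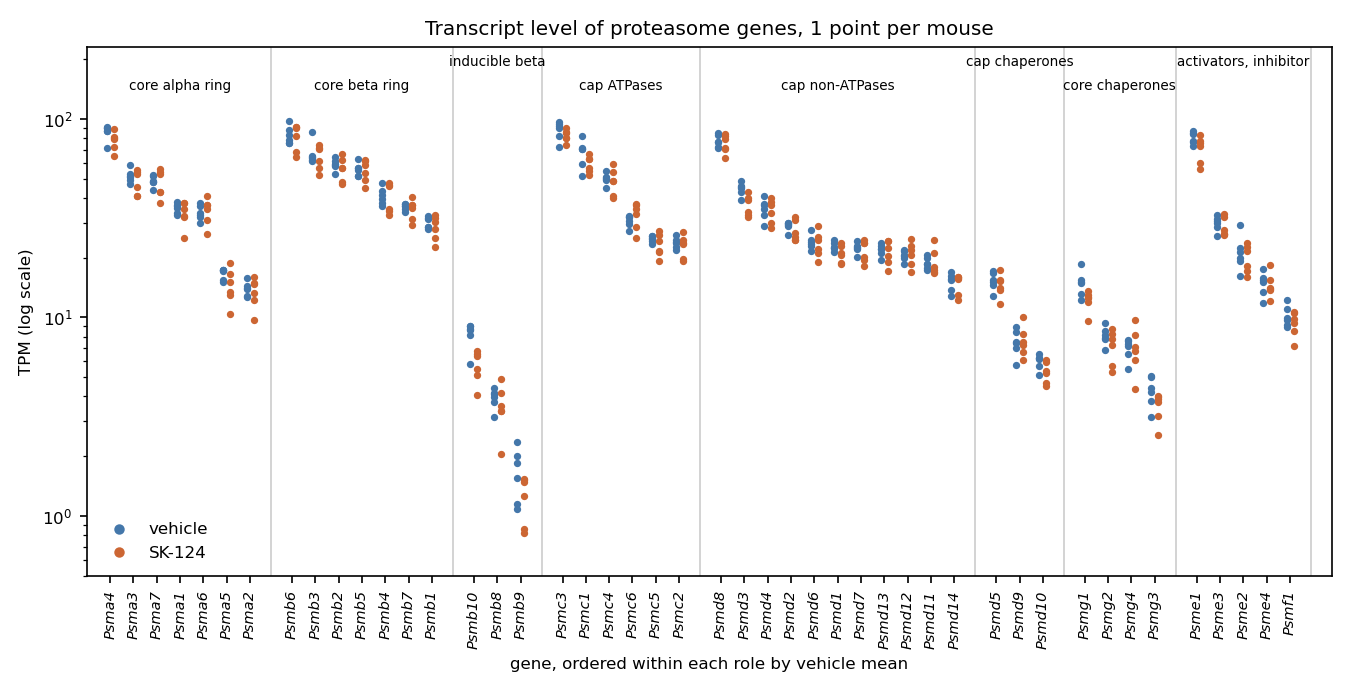
Transcript level of 46 proteasome genes in TPM on a log axis, grouped by role and ordered within a role by the vehicle mean, with vehicle mice in blue and SK-124-treated mice in orange. The constitutive rings and caps lie between 13.9 and 87.8 TPM in the vehicle mean, the inducible beta genes between 1.67 and 8.25 TPM, and the colours overlap for most genes.

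In the alpha ring, which gates the entrance of the barrel, log2 fold changes ran from -0.06 (*Psma5*) to 0.17 (*Psma6*), and none of 7 genes passed the test in edgeR. *Psma6* was at 27.3 CPM in the lowest vehicle mouse, 30.9 at the median and 31.6 in the highest, and at 30.2, 32.9 and 38.3 CPM with SK-124. The groups overlapped, and its log2 fold change of 0.17 (SE 0.07) had an FDR of 0.0728 in edgeR. It passed in DESeq2 (FDR 0.0445) and when SK-124-treated mouse 2 was left out. *Psma4* differed least, with a log2 fold change of 0.00 (95% interval -0.13 to 0.14).

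The constitutive beta ring gave 7 positive values between 0.06 and 0.13 on the log2 scale, none past the test. *Psmb5*, which carries the chymotrypsin-like site and is the target of bortezomib, had 36.4 to 51.2 CPM in vehicle mice (median 41.6) and 43.1 to 47.8 with SK-124 (median 45.7), a log2 fold change of 0.12 (95% interval -0.03 to 0.26, FDR 0.248). *Psmb6*, the caspase-like subunit, had 46.0 to 68.0 CPM (median 53.2) and 52.3 to 63.2 (median 58.1), a log2 fold change of 0.10 (interval -0.07 to 0.27, FDR 0.424). *Psmb7*, the trypsin-like subunit, had 35.4 to 41.7 CPM (median 37.1) and 38.0 to 44.1 (median 39.6), a log2 fold change of 0.10 (interval -0.02 to 0.22, FDR 0.222). All 3 cutting subunits overlapped between groups, and vehicle mouse 3 was the highest vehicle mouse for each. Without that mouse *Psmb5* and *Psmb6* passed the test (log2 fold change 0.18 for both, FDR 0.0156 and 0.0390).

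The inducible counterparts of those 3 subunits all had negative values, of which 1 passed the test. *Psmb10*, the inducible form of *Psmb7*, lies on chromosome 8 (105935735 to 105938444, minus strand, GRCm38). It was at 3.90 CPM in the lowest vehicle mouse, 5.15 at the median and 5.83 in the highest, and at 3.11, 3.70 and 4.56 CPM in SK-124-treated mice. The lowest vehicle mouse fell within the range of SK-124-treated mice, whereas the other 5 vehicle mice (4.81 CPM and above) exceeded every treated mouse. *Psmb10* fell by 0.43 on the log2 scale (SE 0.13, FDR 0.0171 in edgeR), to 0.741-fold (95% interval 0.617 to 0.889), and a two-sided exact permutation test over mice gave p = 0.0130. Its expected counts were 54 to 123 per mouse, and the FDR stayed between 0.00630 and 0.0431 whichever mouse was left out. Against SK-124-treated mice 4 to 6 only, the log2 fold change was -0.34 (FDR 0.165), and against mice 1 to 3 only it was -0.53 (FDR 0.0268).

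*Psmb9*, the inducible form of *Psmb6*, had 1.48 to 2.32 CPM in vehicle mice (median 1.88) and 0.927 to 2.13 with SK-124 (median 1.69), with a log2 fold change of -0.22 (interval -0.63 to 0.20, FDR 0.468). *Psmb8*, the inducible form of *Psmb5*, had 3.12 to 4.34 CPM (median 3.91) and 2.57 to 4.70 (median 3.83), with a log2 fold change of -0.05 (interval -0.35 to 0.25, FDR 0.843). Both overlapped between groups. *Psmb9* had 16 to 49 expected counts per mouse, and its interval included the log2 fold change of *Psmb10*.

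Expressed as a share of each pair's summed TPM, *Psmb10* made up 13.8% to 19.8% of *Psmb10* plus *Psmb7* in vehicle mice (median 19.6%) and 12.2% to 16.0% in SK-124-treated mice (median 14.3%). *Psmb9* made up 1.43% to 3.02% of its pair with *Psmb6* (median 1.84%) and 1.25% to 1.84% with SK-124 (median 1.49%). *Psmb8* made up 5.38% to 7.91% of its pair with *Psmb5* (median 6.55%) and 4.36% to 7.64% (median 6.29%). The constitutive subunit was thus the main transcript of each pair in all 12 mice. TPM divides by an estimated effective length, which also differed between mice. For *Psmb10* it was 499 to 642 bases in vehicle mice (median 572) and 455 to 658 with SK-124 (median 564). For *Psmb9* it was 879 to 1263 bases (median 1011) and 818 to 1234 (median 1053). For *Psmb7* it was 950.36 to 966.65 bases and 950.09 to 964.28. How far effective length shaped these shares was not tested.

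**Figure D3:**
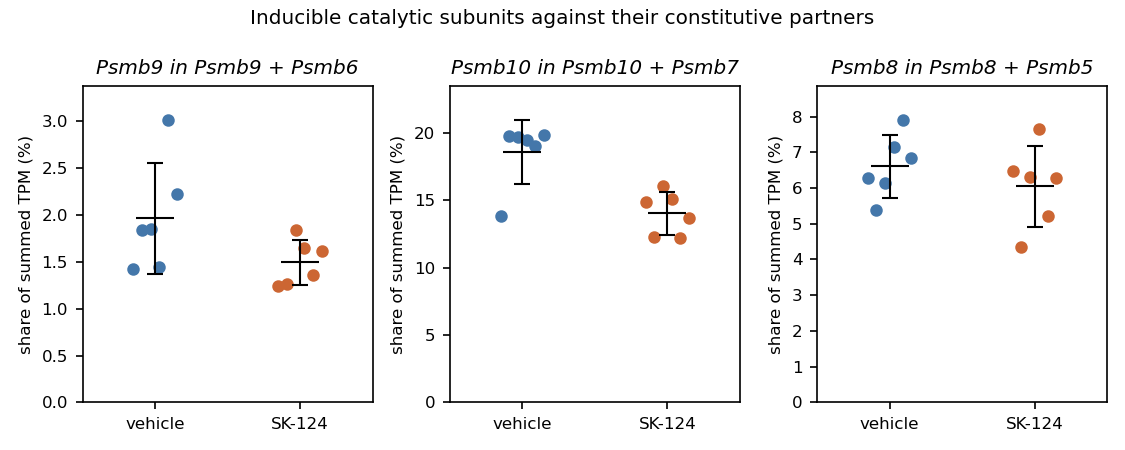
Share of each inducible cutting subunit in the summed TPM of the inducible and constitutive members of its pair, in percent, 1 point per mouse, with the mean and SD of each group of 6 mice. Shares depend on the estimated effective length of each gene as well as on its counts. For *Psmb10*, 5 of 6 vehicle mice lie between 19.002% and 19.842% and the SK-124-treated mice between 12.2% and 16.0%. For *Psmb9*, 4 of 6 vehicle mice lie above the highest treated mouse (1.836%), but vehicle mouse 2 (1.837%) nearly equals it. The groups overlap over most of their range for *Psmb8*.

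Genes of interferon response and antigen presentation, and markers of immune cells, were read beside *Psmb10*, because inducible subunits are known to be abundant in leukocytes. Of 15 interferon and antigen presentation genes, 3 fell and none rose, where 13.5% of all tested genes were lower and 10.8% higher: *Ciita*, the master activator of MHC class II genes (-0.97 on the log2 scale), *Irf8*, a myeloid transcription factor (-0.68), and *Irgm1*, an interferon-inducible GTPase (-0.37). *Tap1*, which encodes a peptide transporter subunit and overlaps the start of *Psmb9* on the other strand, had a log2 fold change of -0.25 (FDR 0.157), and *B2m* one of -0.01 (FDR 0.954). Of the 15 log2 fold changes, 13 were below 0 and 2 above, *H2-K1* (0.08, FDR 0.462) and *H2-D1* (0.05, FDR 0.629). Summed over the 15 genes, CPM was 528 to 717 in vehicle mice and 554 to 653 in SK-124-treated mice. Of 8 immune cell markers, 6 were tested, and 2 fell (again beside 13.5% of all tested genes), *Cd79a* of B cells (-1.75) and *Cd68* of macrophages (-0.60), while the pan-leukocyte marker *Ptprc* had -0.29 (FDR 0.104), *Adgre1* of macrophages -0.62 (FDR 0.0778) and *Csf1r* of macrophages 0.18 (FDR 0.0578). The remaining tested marker, *C1qa* of macrophages, had 0.09 (FDR 0.725). The T cell marker *Cd3e* was at 0 in part of the mice of both groups, and the B cell marker *Ms4a1* in part of the SK-124-treated mice. The summed immune markers spanned 51.6 to 63.4 CPM in vehicle mice and 52.9 to 63.9 with SK-124, a sum carried mostly by *Csf1r*. The other 7 markers summed to 16.1 to 23.8 CPM in vehicle mice and 14.1 to 19.3 CPM with SK-124. In whole kidney, fewer cells of a type and less RNA per cell cannot be told apart, and the part of immune cells in the *Psmb10* value was not tested.

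In the ATPase ring, which unfolds substrates, all 6 values lay between 0.04 and 0.13 on the log2 scale. *Psmc6* had the largest, with 41.4 to 45.8 CPM in vehicle mice (median 44.7) and 45.1 to 50.1 with SK-124 (median 48.6), a log2 fold change of 0.13 (SE 0.05, FDR 0.0543). The groups overlapped only between the lowest treated and the highest vehicle values. *Psmc6* passed the test in DESeq2 (FDR 0.0165), with RLE normalization, and when SK-124-treated mouse 2 was left out. The non-ATPase genes split, with 10 values above 0 and 1 below. *Psmd11*, *Psmd12* and *Psmd14*, which encode a scaffold pair of the lid and its deubiquitinase, had log2 fold changes of 0.16, 0.15 and 0.15 (FDR 0.0751 to 0.0812), and *Psmd12* passed in DESeq2 (FDR 0.0428). *Psmd3*, another scaffold of the lid, had the only negative value, with 86.7 to 94.7 CPM in vehicle mice (median 93.2) and 81.0 to 88.2 in treated mice (median 84.1), a log2 fold change of -0.13 (SE 0.05, FDR 0.0526), with overlap. *Psmd3* passed the test under library totals alone (-0.24, FDR 0.0154) and in DESeq2 (-0.11, FDR 0.0370). The ubiquitin receptors *Psmd2* and *Psmd4*, which dock or bind ubiquitin at the cap, had 0.03 and 0.10 (FDR 0.711 and 0.385).

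**Figure D4:**
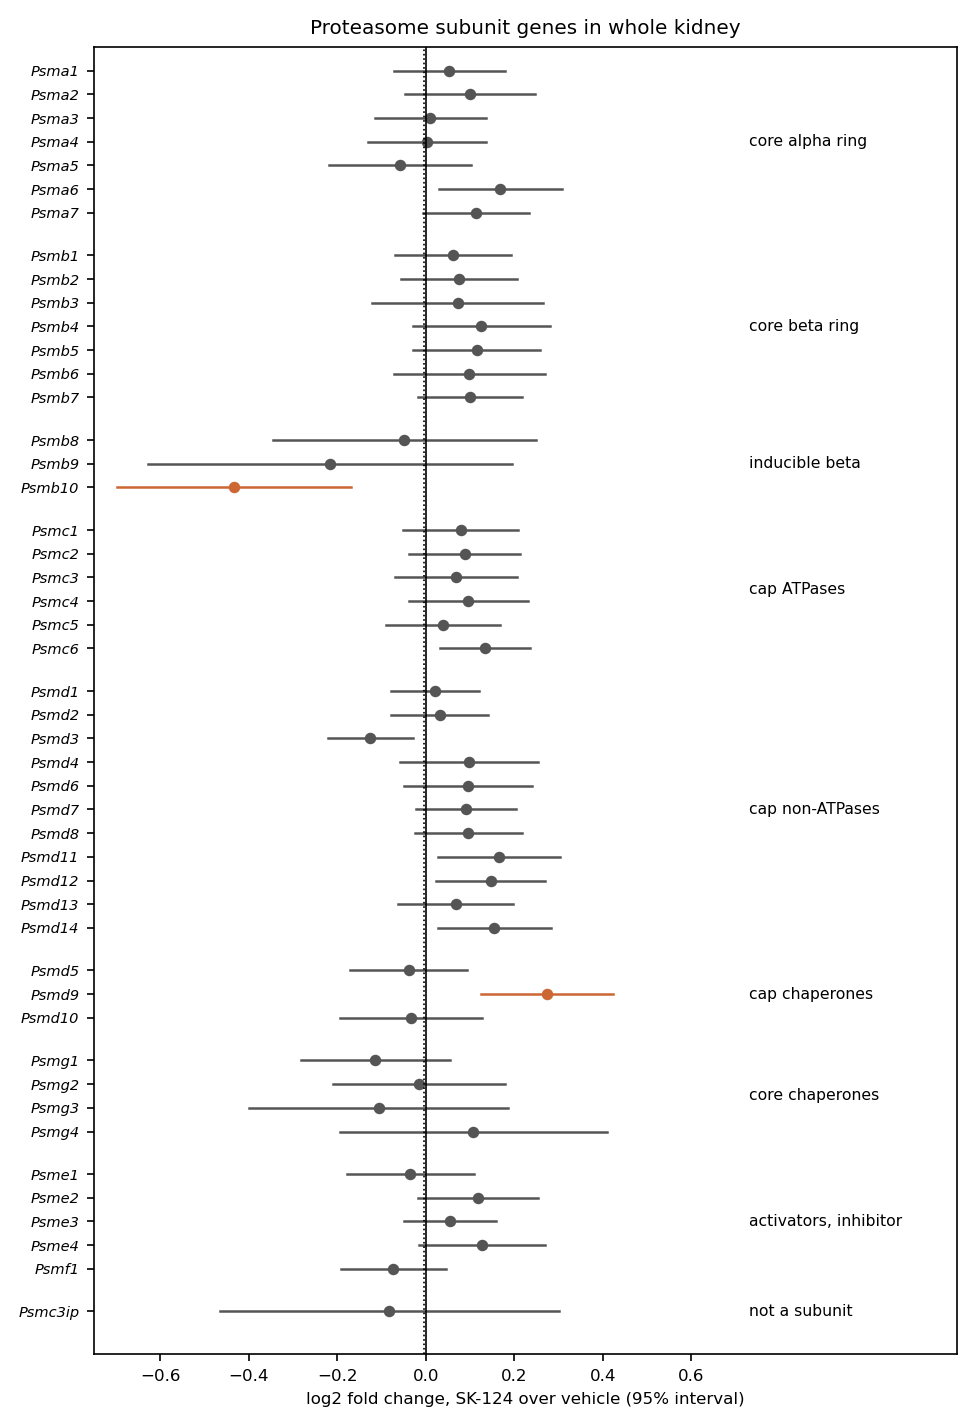
Log2 fold change of SK-124 over vehicle for the 47 tested genes, with 95% intervals from edgeR, grouped by role (core, core particle, and cap, regulatory particle), with genes at FDR under 0.05 in orange and a dotted line at the median of all tested genes. *Psmd9* (0.27) and *Psmb10* (-0.43) stand apart, while the rings and caps cluster between -0.13 and 0.17.

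*Psmd9*, which encodes the p27 chaperone that helps assemble the ATPase ring, was the sole member whose groups did not overlap, where 13.0% of all tested genes had groups that did not overlap. It was at 11.7 CPM in the lowest vehicle mouse, 13.7 at the median and 14.5 in the highest, and at 14.6, 16.1 and 17.9 CPM with SK-124. Every treated mouse was above every vehicle mouse, by a narrow margin at the edge. *Psmd9* rose by 0.27 on the log2 scale (SE 0.07, FDR 0.00857 in edgeR), a 1.21-fold rise (95% interval 1.09 to 1.34). A two-sided exact permutation test gave p = 0.00216, the smallest that 6 against 6 mice allow. Leaving out any one mouse kept the FDR between 0.00633 and 0.0234. Against SK-124-treated mice 1 to 3 only the log2 fold change of *Psmd9* was 0.31 (FDR 0.0312), and against mice 4 to 6 only it was 0.24 (FDR 0.0614).

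NRF1 and NRF2 act through the antioxidant response element, TGACNNNGC, which is why promoter stretches holding it are shown. *Psmd9* is the proteasome gene past the test whose promoter holds the motif. *Psmb5* and *Psmb6*, cutting subunits that were not called, were added after their values were seen. Each stretch is the 60 bases before the RefSeq start (GRCm38.p6), 5′ to 3′ on the strand of the gene, with the motif in capitals.
*Psmd9*, chr5:123228130-123228189, plus strand: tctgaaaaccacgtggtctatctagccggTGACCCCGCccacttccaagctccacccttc
*Psmb5*, chr14:54617996-54618055, minus strand: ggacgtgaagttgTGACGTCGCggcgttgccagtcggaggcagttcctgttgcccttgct
*Psmb6*, chr11:70525297-70525356, plus strand: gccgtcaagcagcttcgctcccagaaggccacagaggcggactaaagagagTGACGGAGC

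Promoter windows of 300 bases, 250 before to 50 after the start, were at hand for 42 of the 50 genes, and motifs were searched on both strands. The antioxidant response element occurred in 6 of the 42 genes (14.3%), near the share found over all genes with a window (13.99%). Besides *Psmd9*, *Psmb5* and *Psmb6*, it occurred in *Psmc6*, *Psmd12* and *Psme4*, whose stretches are not printed. The shorter TGACG, which lies within the cAMP response element and overlaps some of the matches above, occurred in 19 of 42 (45.2%, against 23.0% of all genes), whereas the full site TGACGTCA occurred in 0 of 42 (2.03% of all genes). The CCAAT box occurred in 15 of 42 genes (35.7%, against 41.1%), the interferon-stimulated element core GAAANNGAA in 7 (16.7%, against 9.76%) and the gamma-activated site TTCNNNGAA in 3 (7.14%, against 9.55%). The window of *Psmb10* held none of these motifs. The shares over all genes took every gene with a window, whether or not it was expressed in kidney. Genes of like level or base composition were not compared, so the TGACG shares cannot be read as enrichment particular to proteasome genes. A role of any of these motifs was not tested.

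The rise of *Psmd9* was not present in every measure. With library totals in place of TMM it was 0.16 on the log2 scale (FDR 0.154). In log2(TPM + 1) it was 0.02 (limma, FDR 0.940), with mean TPM of 7.54 ± 1.14 in vehicle mice and 7.65 ± 1.37 with SK-124 (SD, n = 6). The median of all tested genes was itself below 0 in these fits, at -0.12 with library totals and -0.11 in log2(TPM + 1). TPM divides by an effective length that follows the estimated mix of transcripts, which for *Psmd9* ranged from 1406 to 1999 bases in vehicle mice (median 1585) and from 1571 to 2050 bases with SK-124 (median 1765). The count per gene and the mix of transcripts thus both differed between mice. *Psmd9* spans 123169413 to 123250131 of chromosome 5 (plus strand, GRCm38, GENCODE M21), and its main coding transcript starts at 123228190. A longer noncoding transcript of the gene runs over *Hpd* on the other strand (123171807 to 123182727), a tyrosine breakdown enzyme gene that was itself higher with SK-124 (log2 fold change 0.70). The exons of the *Psmd9* transcripts shared 0 bases with *Hpd* exons, and use of strand in counting was not stated.

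The other base chaperones showed no such value. *Psmd5* had 22.3 to 27.02 CPM in vehicle mice (median 24.9) and 21.8 to 26.3 with SK-124 (median 24.1), a log2 fold change of -0.04 (interval -0.17 to 0.09). *Psmd10*, also known as gankyrin, had 7.12 to 8.69 CPM (median 8.001) and 7.01 to 8.29 (median 7.86), a log2 fold change of -0.03 (interval -0.19 to 0.13). Among the chaperones of core assembly, *Psmg1* had a log2 fold change of -0.11 (interval -0.28 to 0.05), *Psmg2* one of -0.02 (-0.21 to 0.18), *Psmg3* one of -0.11 (-0.40 to 0.19) and *Psmg4* one of 0.11 (-0.19 to 0.41). None passed the test (FDR 0.335 to 0.927), and *Psmg3* and *Psmg4* were too scarce, at 31 to 73 expected counts per mouse, for intervals within 1.25-fold.

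The alternative caps and the inhibitor were likewise within the spread between mice. *Psme1* and *Psme2* encode the interferon-inducible activator PA28 alpha and beta. *Psme1* had 39.3 to 47.4 CPM in vehicle mice (median 42.2) and 38.0 to 49.2 with SK-124 (median 41.4), a log2 fold change of -0.03 (interval -0.18 to 0.11). *Psme2* had 13.3 to 14.5 CPM (median 14.2) and 13.6 to 17.3 (median 14.7), a log2 fold change of 0.12 (interval -0.02 to 0.25). *Psme1* (plus strand, to 55581529 of chromosome 14) overlaps only the last bases of *Emc9* (minus strand, from 55581516). *Emc9* was scarcer, with a median of 3.65 CPM in vehicle mice, and was lower with SK-124 (log2 fold change -0.51). *Psme2* shares sequence with *Psme2b*, so both values carry some uncertainty, of a size that was not tested. The nuclear cap *Psme3* had 0.05 (interval -0.05 to 0.16), the large cap *Psme4*, or PA200, had 0.13 (interval -0.02 to 0.27), and the inhibitor *Psmf1*, or PI31, had -0.07 (interval -0.19 to 0.05). *Psmc3ip* had 0.807 to 1.53 CPM in vehicle mice and 0.852 to 1.22 with SK-124, a log2 fold change of -0.08 (interval -0.47 to 0.30).

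Of 32 genes that feed, assemble or regulate the proteasome, all tested, 4 rose and none fell at FDR under 0.05. The 12.5% that rose is near the 10.8% of all tested genes that were higher, while 13.5% of all tested genes were lower. Among the 4 were *Zfand5*, *Ubb* and *Nfe2l2*. The median log2 fold change of the 32 genes was 0.09.

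*Zfand5* (chromosome 19, 21272278 to 21286840, plus strand) encodes a zinc finger protein that binds the proteasome and stimulates its activity. It was at 24.0, 28.1 and 29.7 CPM in the lowest, median and highest vehicle mouse, and at 38.7, 43.5 and 47.6 CPM with SK-124. The groups were well separated. It rose by 0.65 on the log2 scale (SE 0.07, FDR 1.26e-06 in edgeR), which is 1.57-fold (95% interval 1.43 to 1.73).

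*Ubb* (chromosome 11, 62551171 to 62553213, plus strand) encodes a string of ubiquitin units and is a stress-responsive source of ubiquitin. It was at 664, 723 and 887 CPM in the lowest, median and highest vehicle mouse and at 861, 935 and 1097 CPM with SK-124, and the highest vehicle mouse, number 3, lay within the treated range. *Ubb* rose 1.28-fold (95% interval 1.15 to 1.43, FDR 0.00204 in edgeR), and it did not pass the test in limma on TPM. *Rps27a*, in which ubiquitin is fused to a ribosomal protein, had a log2 fold change of 0.11 (FDR 0.311). Ubiquitin coding repeats are near identical in sequence, and RSEM shared reads between such genes by estimate.

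*Nfe2l2* was at 66.6, 71.7 and 75.3 CPM in the lowest, median and highest vehicle mouse and at 72.8, 82.1 and 90.7 CPM with SK-124, with overlap. It rose 1.15-fold (95% interval 1.05 to 1.25, FDR 0.0272) but had a log2 fold change of 0.08 with library totals (FDR 0.503). It also missed the threshold in both limma fits on TPM (FDR 0.794 and 0.796) and with SK-124-treated mice 1 to 3 only (FDR 0.0936) or 4 to 6 only (FDR 0.0746), and it lost the call (FDR 0.0503 to 0.0661) when vehicle mouse 2, vehicle mouse 4, or SK-124-treated mouse 2, 4 or 6 was left out. *Nfe2l1*, the factor best known for raising subunit genes when proteasomes are inhibited, had 0.11 on the log2 scale (SE 0.05, FDR 0.134). The proteases and cofactors of that pathway were *Ddi2*, which cleaves NRF1 (-0.25, FDR 0.0675), *Ngly1*, which strips its sugars (-0.01, FDR 0.921), and *Vcp*, which extracts it from the membrane (0.04, FDR 0.595). *Midn*, whose product carries proteins to the proteasome without ubiquitin, had -0.26 (SE 0.09, FDR 0.0502). The proteasome genes outside the naming pattern had 0.14 for *Sem1* (FDR 0.241), 0.04 for *Adrm1* (FDR 0.717) and 0.18 for the core maturation factor *Pomp* (FDR 0.149).

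**Figure D5:**
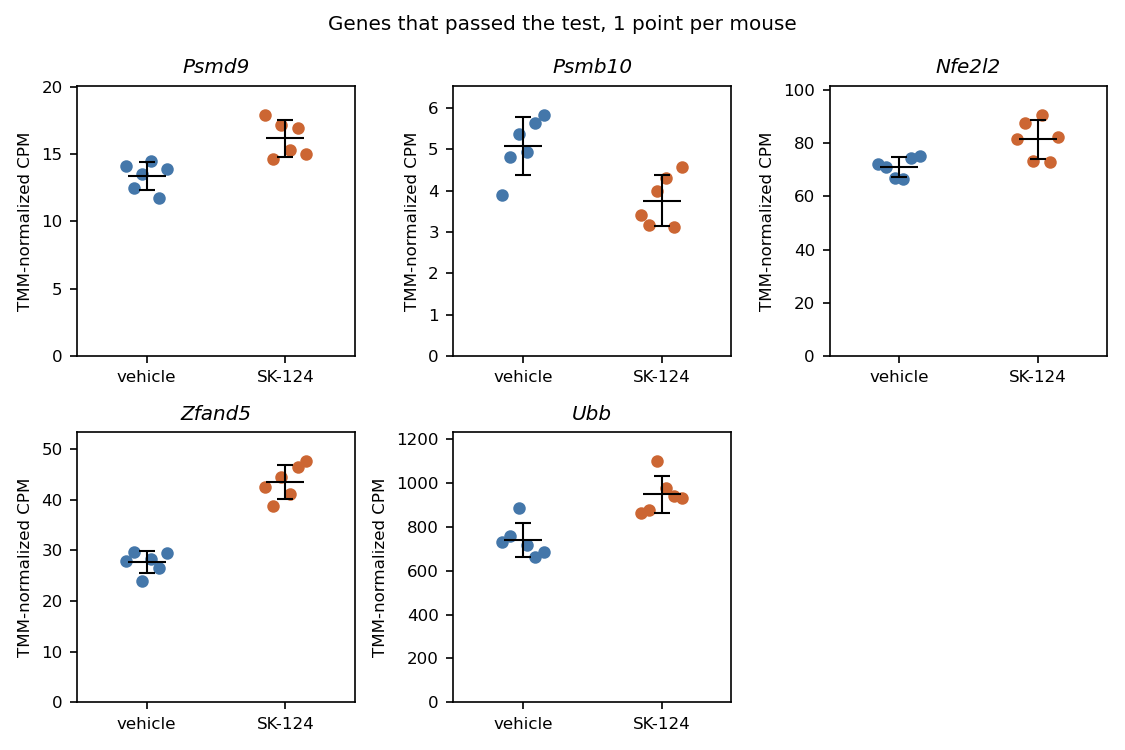
TMM-normalized CPM per mouse for 5 genes past FDR 0.05 among the proteasome genes and their regulators, with the mean and SD of each group of 6 mice, on axes that start at 0. *Zfand5* and *Psmd9* show no overlap between groups, whereas *Psmb10*, *Nfe2l2* and *Ubb* do.

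The genes were spread over 16 chromosomes, 10 of them on chromosome 11. Neighbours included *Psmb5* and *Psmb11*, 3410 bases apart on chromosome 14, of which *Psmb5* was abundant and *Psmb11* at 0. *Psme1* and *Psme2*, partners in one activator, lay 5911 bases apart on chromosome 14, and *Psmb8* and *Psmb9* lay 9956 bases apart on chromosome 17 with *Tap1* between them.

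Kidney markers matched the labelled tissue. All 8 of those on the list, among them *Lrp2* and *Slc34a1* of proximal tubule, *Umod* and *Slc12a1* of thick ascending limb and *Pecam1* of endothelium, were present in every mouse. Of the 8, 2 were higher with SK-124, among them *Aqp2* of collecting duct (0.75 on the log2 scale). None of 4 haemoglobin genes passed the test, and their sum ranged from 453 to 1247 CPM in vehicle mice and from 544 to 780 CPM with SK-124.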

How the data were processed

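Whole-kidney RNA was sequenced on a BGISEQ500 instrument, 1 library for each of 12 mice. Per the submitters' processing notes, the tools were FastQC, STAR 2.7.2b, RSEM 1.3.0 and DESeq2, with build mm10. The gene annotation and the use of strand were not given in the sources used here. The authors deposited RSEM expected counts, TPM values and effective lengths per gene and mouse. RSEM splits reads between similar genes by estimate, which touches the ubiquitin genes and *Psme2*.

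Gene identifiers were matched to GENCODE M21 symbols (55141 of 55401, of which 54349 with the version). Expected counts were rounded, filtered with edgeR's filterByExpr and scaled by TMM, and SK-124 was compared with vehicle by edgeR's quasi-likelihood test (edgeR 4.0.16 in R 4.3.3) with Benjamini-Hochberg adjustment over 14159 genes. Single values were also tested by a two-sided exact permutation test over mice. DESeq2 1.42.0 and limma 3.58.1 on log2(TPM + 1) and log2(TPM + 0.1) served as alternatives, beside other scalings, filters, a replicate block and leaving out mice. A fold change on the TPM scale with a pseudocount understates changes of low genes. The procedure was tested on simulated data. Each library held 19244227 to 19771802 counts, so that genes with few counts, such as *Psmb9*, have wide intervals. The p-values of edgeR set the difference between groups against the variation between mice, which is estimated in part from other genes. The permutation p-values were not adjusted for the number of genes. They are given for genes already past the test in the same data.

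Described with values were members with FDR under 0.05, the cutting pairs, activators, inhibitor and chaperones, *Psma8*, *Psmb11* and *Psmc3ip*, and regulators with FDR under 0.05. Promoter stretches were to be printed for members past the test with an antioxidant or full cAMP response element, which gave *Psmd9*. Those of *Psmb5* and *Psmb6*, which did not pass the test, were added after their values were seen. *Psma6*, *Psmc6*, *Psmd3* and the other genes given beside them were chosen after their values were seen. A few genes counted in the lists are not reported here by name. The members and gene lists were chosen with earlier results of these data known. Promoter sequences and starts came from RefSeq on GRCm38.p6.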

Additional observations from a re-analysis of the deposited data

Results flagged for a closer look

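Within each group of 6 mice, values were searched for a mouse whose gap to its nearest neighbour was large for the range of the group (Dixon's criterion). Of 114 groups of values tested, 8 were marked, where chance marks about 1 in 20 groups (5.7 here). In 7 of the 8 the mouse was vehicle mouse 3, as the highest of its group. *Psma1* was at 42.5 CPM in that mouse (others 35.8 to 38.0), *Psma3* at 55.6 (others 44.1 to 47.5), *Psmb3* at 56.8 (others 35.5 to 40.5) and *Psmb4* at 44.7 (others 33.4 to 37.6). *Psmb6* was at 68.0 CPM (others 46.0 to 53.8) and *Psmd8* at 111.8 (others 90.9 to 98.0). The summed core particle genes were at 688.8 CPM (others 546.6 to 597.5). These values share a library and are not independent of each other. In vehicle mouse 1, the share of *Psmb10* in the summed TPM of *Psmb10* and *Psmb7* was 13.8%, lowest of its group (others 19.002% to 19.842%). That share depends on the estimated effective length of *Psmb10*, whose part in it was not tested. The same mouse was also the lowest vehicle mouse for *Psmb10* in CPM, which is not divided by effective length.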

How the results depend on the processing

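The number of proteasome genes higher with SK-124 was 1, and it was 4 in DESeq2, 2 with RLE normalization, 0 with library totals, 0 in both limma fits on TPM, 0 with SK-124-treated mice 4 to 6 only, and 1 to 9 when any one mouse was left out, with 9 without vehicle mouse 3. The number lower was 1, and it was 2 in DESeq2, with library totals, with at least 10 counts in every mouse and in both limma fits, 0 with SK-124-treated mice 4 to 6 only, and 1 to 2 with a mouse left out. Regulators higher numbered 4, with 7 in DESeq2, 2 in both limma fits and 3 to 7 with a mouse left out. Regulators lower numbered 0, with 2 unadjusted p under 0.05 in edgeR, 0 in DESeq2, 2 with library totals, 1 without a filter, with at least 10 counts, with robust dispersion and in both limma fits, and 0 to 2 with a mouse left out. All genes past the threshold numbered 3453, with 2298 for SK-124-treated mice 1 to 3 only (fewer mice) and 2960 to 3942 with a mouse left out. Of 14159 genes, 1536 were higher in the main fit, 1610 with RLE normalization, 777 with library totals, and 500 and 498 in limma. In the same order, 1917, 1847, 3058, 2130 and 2118 were lower. DESeq2 had 1769 higher and 1811 lower of 17431 genes. SK-124-treated mice 4 to 6 only gave 1179 higher and 1267 lower of 14621. With a mouse left out, 1320 to 1863 were higher and 1633 to 2079 lower.

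The median log2 fold change of the proteasome genes, 0.07, turned to -0.0384 with library totals, -0.0657 in limma on log2(TPM + 1) and -0.0699 in limma on log2(TPM + 0.1), and was 0.0529 to 0.1136 with a mouse left out. Among all calls, 44.5% were higher by TMM scaling, 20.3% with library totals and 19.01% and 19.04% in the limma fits. The TMM factors were 0.889 to 0.915 in SK-124-treated mice 1 to 3 and 0.991 to 1.08 in the other mice. The cause was not tested. The replicate numbers did not pair the mice (same-number correlations -0.13 to 0.22). With the replicate block the calls were 1 higher and 1 lower among proteasome genes, 5 higher and 2 lower among regulators, and 3466 over all genes.

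Depth limits the scarce genes. With 6 mice a group, the intervals of the structural subunits lay within 1.25-fold of no change in the main fit, and smaller changes were not excluded. Protein levels were not measured.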
